A study of Mus musculus with 9 samples.

Results

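Respiratory complex I, NADH:ubiquinone oxidoreductase, was followed through the transcripts of its nuclear-encoded subunits. The members were the rows of the deposited expression table whose gene symbol had the form Ndufa, Ndufb, Ndufc, Ndufs, Ndufv or Ndufab followed by a number. This gave 37 genes of the 59445 features in the table, and all 37 passed the filter on low values, 10 or more normalised reads in no fewer than 4 of the 9 libraries, which left 15288 features for testing. RNA came from macrophages that carried F4/80 and CD11b and were sorted from the livers of male C57BL/6 mice. The mice had received 1 intraperitoneal dose of the liver toxin carbon tetrachloride (CCl4) 24 hours before, at 0.6 mg/kg as labelled. The libraries S1, S3, S4 and S5 came from mice labelled MAGL fl/fl, all 11 weeks old (4 libraries). The libraries S8 to S12 came from mice labelled MAGL Mye-/- (5 libraries), 10 weeks old for S9, S10 and S11 and 11 weeks old for S8 and S12. MAGL is monoacylglycerol lipase, encoded by Mgll, and the label Mye-/- stands for its loss in myeloid cells. The labels name neither the promoter that drives the deletion nor whether every library is from a mouse of its own. Mgll itself was at 18.6, 0, 106 and 22.8 normalised reads in the fl/fl libraries and at 30.4, 46.6, 5.93, 42.7 and 0 in the Mye-/- libraries, so at these low and overlapping levels its transcript did not check the genotype labels. Values by library are always given in rising order of library number.

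Complex I is the largest enzyme of the mitochondrial respiratory chain and a main entry point for electrons. Its matrix arm takes electrons from NADH and passes them along iron-sulphur clusters to ubiquinone, and its membrane arm pumps protons across the inner mitochondrial membrane. A small set of core subunits does the chemistry, and many accessory subunits surround them and serve assembly and stability. The proton-pumping core of the membrane arm is encoded by the mitochondrial genome. In macrophages, complex I is known as a source of reactive oxygen species and as a point at which inflammatory stimulation alters respiration.

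Transcripts of complex I subunits were mostly lower in the Mye-/- libraries by a modest amount, and none passed the limma test adjusted over all tested features. The log2 fold change, Mye-/- minus fl/fl on the log2(value + 1) scale, was below 0 for 34 of the 37 members, against 45.4% of all tested features. The median over the members was -0.32, with a range from -1.11 to 0.48, and the median over all tested features was 0.06. Most of these transcripts are short. Among annotated features shorter than 1000 bases with a mean of at least 500 normalised reads, 79.4% were below 0 (median -0.21). The 22 members of that kind were all below 0 (median -0.39). On the linear scale, the median difference between group means was -20.7% of the fl/fl mean, with a range from -52.6% to 13.0%. The members with a log2 fold change above 0 were Ndufa12, Ndufb4 and Ndufab1, 3 of the 5 members with a mean under 1000 normalised reads in both groups. In these bulk samples, fewer cells of a type and less RNA per cell cannot be told apart.

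By limma with Benjamini-Hochberg adjustment, 0 of the 37 members were called lower and 0 higher, with adjusted p values between 0.218 and 0.905. Over all 15288 features the same test called 0 lower, or 0%, and 3 higher, or 0.0196%. At an unadjusted p under 0.05, 16 members were lower, against 4.13% of all tested features, and 0 were higher, against 6.38%. Among the 7198 tested features with a mean of at least 500 normalised reads, 50.2% had a log2 fold change below 0 and 7.18% were lower at that unadjusted threshold. The edgeR quasi-likelihood test on recovered reads called 0 members lower, against 0% of features. DESeq2 called 2 members lower, Ndufb7 (adjusted p = 0.0302) and Ndufs6 (adjusted p = 0.0353), among the 33 members to which it gave an adjusted p, against 1.14% of features. In 3 members, Ndufb7, Ndufs6 and Ndufb9, every Mye-/- value lay below every fl/fl value, against 1.6% of features. In 20 members all 5 Mye-/- values lay below the fl/fl mean, against 15.8% of features, and in 31 members at least 4 did, against 34.3%.

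**Figure D1:**
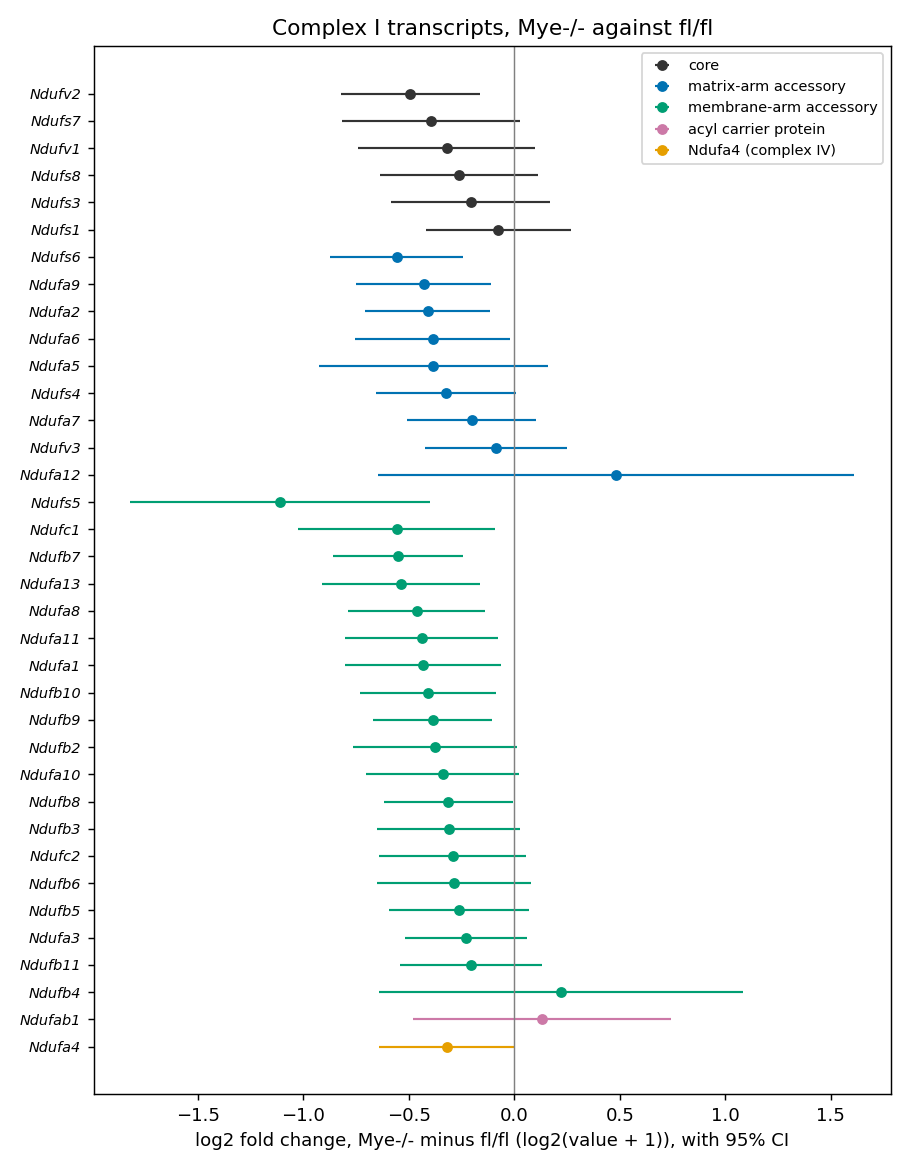
Log2 fold change (x axis, Mye-/- minus fl/fl on the log2(value + 1) scale) of 36 of the members (y axis), coloured by class and ordered within it; points are limma estimates and bars 95% confidence intervals. In 16 members the whole interval lies below 0, in 20 it includes 0, and the 3 points right of 0 are Ndufa12, Ndufb4 and Ndufab1.

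Age was partly tied to genotype. Among the libraries of 11-week-old mice alone (4 fl/fl and 2 Mye-/-), 35 members were lower, the median log2 fold change was -0.25, and 4 members were lower at an unadjusted limma p under 0.05 in place of 16. With age as a covariate the number was 5. Because all fl/fl mice were 11 weeks old, that covariate gave the same fold changes as the 11-week-old mice alone. With a covariate for how many features each library detected, the number was 9. Without fl/fl S3 it was 10, and without both fl/fl S1 and S3 it was 9, with 32 members lower and a median of -0.27. The median log2 fold change was below 0 in each of these settings, whereas the number of members past the unadjusted threshold moved. In 11-week-old mice the Mye-/- side consisted of S8 and S12. After each gene's own mean was subtracted on the log2 scale, their averages over the members were 0.06 and -0.26. Libraries S1 and S3 and the younger mice were not left out together. For these settings the share of all features past that threshold was not worked out. Whether the count moved in the members alone or over all features was thus not tested.

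The classes of subunit had similar medians. Every one of the 7 core subunits was lower (median log2 fold change -0.27), and 1 of them, Ndufv2, was lower at an unadjusted limma p under 0.05. Of the 9 accessory subunits of the matrix arm, 8 were lower (median -0.38), 4 of them at that threshold. Of the 20 listed accessory subunits of the membrane arm, 19 were matched in the table, all but Ndufb1. Of those 19, 18 were lower (median -0.37), 10 of them at that threshold. The share lower at that threshold was 4.13% over all tested features and 7.18% over those with a mean of at least 500. The differences between the classes were not tested.

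Because the genes of this complex lie on 15 chromosomes and were mostly lower together, their promoters were searched for motifs of factors known for nuclear genes of the respiratory chain. RefSeq (GRCm38.p6, the assembly of mm10, in which all positions here are given) gave a window from 250 bases before to 50 bases after the start of transcription for 33 of the 37 members. The 4 windows shown are those of Ndufs6 and Ndufb7, the members with the smallest p values, and of Ndufa8 and Ndufa9, which hold other examples of the same motifs. Each is written 5′ to 3′ on the strand of the gene. Capitals mark the palindrome bound by nuclear respiratory factor 1 (NRF1) with 1 central base left free, AAGATGGC, the core of a YY1 site, or CCGGAAG, the core of an ETS site such as that of GABP.
Ndufs6, chr13:73328433-73328732, minus strand, with GCGCCTGCGC and AAGATGGC: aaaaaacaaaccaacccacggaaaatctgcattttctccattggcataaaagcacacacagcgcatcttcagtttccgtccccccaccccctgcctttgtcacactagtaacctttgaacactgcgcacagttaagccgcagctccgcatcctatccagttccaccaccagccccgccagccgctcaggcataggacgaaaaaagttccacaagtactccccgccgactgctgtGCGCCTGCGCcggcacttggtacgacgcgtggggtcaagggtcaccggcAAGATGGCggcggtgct
Ndufa8, chr2:36049289-36049588, minus strand, with GCGCTTGCGC: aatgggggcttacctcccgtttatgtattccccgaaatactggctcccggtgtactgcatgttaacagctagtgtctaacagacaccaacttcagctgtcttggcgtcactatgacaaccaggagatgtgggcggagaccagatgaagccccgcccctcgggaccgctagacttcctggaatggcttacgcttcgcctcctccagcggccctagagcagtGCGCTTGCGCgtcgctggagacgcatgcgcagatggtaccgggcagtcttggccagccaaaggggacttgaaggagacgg
Ndufa9, chr6:126849095-126849394, minus strand, with AAGATGGC: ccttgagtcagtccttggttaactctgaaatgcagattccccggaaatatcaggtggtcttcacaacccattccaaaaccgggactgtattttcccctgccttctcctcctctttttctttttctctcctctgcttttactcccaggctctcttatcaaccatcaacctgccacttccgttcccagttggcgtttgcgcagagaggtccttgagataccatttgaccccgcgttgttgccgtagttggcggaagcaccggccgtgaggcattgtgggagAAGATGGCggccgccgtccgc
Ndufb7, chr8:83566508-83566807, plus strand, with CCGGAAG: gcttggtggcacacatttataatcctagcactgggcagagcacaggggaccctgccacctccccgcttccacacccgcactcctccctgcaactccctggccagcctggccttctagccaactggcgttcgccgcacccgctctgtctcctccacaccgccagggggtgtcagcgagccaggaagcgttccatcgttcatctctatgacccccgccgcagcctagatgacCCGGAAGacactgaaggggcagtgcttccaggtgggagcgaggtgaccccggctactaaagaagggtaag

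Both strands of each window were searched, and overlaps between motifs were allowed. The NRF1 palindrome with its free base was in the promoters of 7 of the 33 members (21.2%), Ndufa5, Ndufa6, Ndufa8, Ndufa11, Ndufb4, Ndufs5 and Ndufs6. The share was 5.19% over all 27025 genes with a window and 11.96% over the 9041 of them that were tested here. AAGATGGC was in 7 members (21.2%), Ndufa3, Ndufa9, Ndufb8, Ndufc1, Ndufs4, Ndufs6 and Ndufs7, against 3.19% and 5.72%. CCGGAAG was in 4 members (12.1%), Ndufb6, Ndufb7, Ndufs3 and Ndufs8, against 9.93% and 21.1%. The SP1 core GGGCGG was in 15 members (45.5%), against 38.2% and 68.0%, and CCAAT was in 10 (30.3%), against 41.1% and 43.0%. Members with that palindrome had a median log2 fold change of -0.44 and the other 26 a median of -0.32. For AAGATGGC the medians were -0.40 with the motif and -0.32 without it. The order was the other way for CCGGAAG (-0.27 with and -0.34 without), GGGCGG (-0.31 and -0.35) and CCAAT (-0.30 and -0.34). The remaining motifs of the 7 searched were each in 1 member (3.03%). The NRF1 palindrome without a free base was in Ndufa11, against 1.07% of all genes with a window and 2.47% of the tested ones. The motif labelled ERR was in Ndufb4, against 1.43% and 0.88%. The log2 fold changes of these members were -0.44 and 0.22, with medians of -0.32 and -0.33 without the motif. A match is a description of these letters and not a bound site, and the differences between members with and without a motif were not tested.

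The core subunits of the matrix arm are the catalytic part of the nuclear-encoded complex. Ndufv1 holds the flavin that accepts electrons from NADH (chromosome 19, 4007499 to 4012755, minus strand). Its values were 4779, 4200.4, 3279.5 and 2465 normalised reads across the fl/fl libraries against 3388, 2225, 3676, 2329 and 2953 across the Mye-/- libraries. The groups overlapped, with fl/fl S5 below 3 of the Mye-/- libraries, and the log2 fold change was -0.32 ± 0.20 (SE; limma adjusted p = 0.592). Ndufv2, which carries an iron-sulphur cluster beside that flavin (chromosome 17, 66078795 to 66101559, minus strand), gave 6260.1, 8195, 5704 and 7076 across the fl/fl libraries against 6274, 4277, 4529, 5299 and 3939 across the Mye-/- libraries. Mye-/- S8 lay among the fl/fl values, above fl/fl S1 and S4, and the other 4 Mye-/- libraries lay below all of fl/fl. Group means came to 6809 ± 1083 (SD, n = 4) for fl/fl and 4864 ± 934 (SD, n = 5) for Mye-/-, with a log2 fold change of -0.49 ± 0.16 (SE; limma adjusted p = 0.297).

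Ndufs1, the large subunit that carries several of the iron-sulphur clusters (chromosome 1, 63143585 to 63176822, minus strand), showed the smallest difference among the core subunits. It gave 2068, 2126, 1816 and 2220.0 normalised reads across the fl/fl libraries against 1652, 2034, 2320.3, 1734 and 2061 across the Mye-/- libraries. The highest value of all was in Mye-/- S10, and the groups overlapped, with a log2 fold change of -0.08 ± 0.16 (SE), a 95% interval from -0.42 to 0.27 and a limma adjusted p of 0.898. Ndufs7, which takes part in the ubiquinone pocket (chromosome 10, 80249450 to 80256792, plus strand), gave 3498, 2226, 1986 and 1638 across the fl/fl libraries against 1812, 1461, 1851, 1870.4 and 1575 across the Mye-/- libraries. It was highest in fl/fl S1, and fl/fl S5 lay within the Mye-/- range. The log2 fold change was -0.40 ± 0.20 (SE; limma adjusted p = 0.501).

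Ndufs3 (chromosome 2, 90894636 to 90904722, minus strand) belongs to the same module, and Ndufs8 (chromosome 19, 3908864 to 3912775, minus strand) carries the iron-sulphur clusters that lead to it. Ndufs3 gave 2518, 2036, 2005 and 1668 normalised reads across the fl/fl libraries against 1855, 1360.1, 2081, 1855 and 1747 across the Mye-/- libraries. Ndufs8 gave 3096, 5214, 3569 and 3693 across the fl/fl libraries against 4418, 2737, 2914, 3371 and 2777 across the Mye-/- libraries. The groups overlapped in both, and the libraries that stood high differed: S1 for Ndufs3, and S3 and S8 for Ndufs8. The log2 fold changes were -0.21 ± 0.18 and -0.26 ± 0.18 (SE; limma adjusted p = 0.717 and 0.633).

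Of the accessory subunits of the matrix arm, Ndufs6, a zinc-binding subunit needed late in assembly (chromosome 13, 73319876 to 73328482, minus strand; promoter shown above), had the smallest p. It gave 3929, 4542, 4025 and 4809 normalised reads across the fl/fl libraries against 3349, 2902, 3495, 2548 and 2489.7 across the Mye-/- libraries. The groups did not overlap: the highest Mye-/- value, in S10, lay below the lowest fl/fl value, in S1. Group means came to 4326 ± 419.7 (SD, n = 4) for fl/fl and 2957 ± 456 (SD, n = 5) for Mye-/-, and the log2 fold change was -0.56 ± 0.15 (SE; 95% interval -0.87 to -0.24; limma adjusted p = 0.218). Ndufs6 shares exon sequence positions with Mrpl36 on the opposite strand and has a close copy elsewhere in the annotation. Because no source used here gives the strand setting of the counting, reads of these genes cannot be told apart.

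Ndufa2, a small subunit with a thioredoxin-like fold at the tip of the matrix arm (chromosome 18, 36742332 to 36744587, minus strand), gave 5444, 5197, 5355 and 4781 normalised reads across the fl/fl libraries against 3685, 3904, 5043, 3637 and 3428 across the Mye-/- libraries. The Mye-/- libraries other than S10 lay below all of fl/fl, and S10 lay above fl/fl S5. The log2 fold change was -0.41 ± 0.14 (SE; limma adjusted p = 0.329). Ndufa9, which binds a nucleotide cofactor near the join of the arms, had a log2 fold change of -0.43, and Ndufa6, a partner of the mitochondrial acyl carrier protein, one of -0.39 (limma adjusted p = 0.334 and 0.456). Ndufs4, whose loss causes a mitochondrial encephalopathy in mice, was at -0.32 on that scale, with Ndufa5 at -0.38, Ndufa7 at -0.20 and Ndufv3 at -0.09 (limma adjusted p = 0.483, 0.626, 0.651 and 0.88).

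Ndufa12, a subunit related in sequence to the assembly factor Ndufaf2 (chromosome 10, 94199004 to 94221442, plus strand), was the matrix-arm member with a higher Mye-/- mean. Its values were 602, 325, 67.2 and 244 normalised reads across the fl/fl libraries against 427, 311, 199, 314 and 499 across the Mye-/- libraries. The fl/fl libraries held both the highest and the lowest value, S1 and S4, with the Mye-/- libraries between them. The log2 fold change was 0.48 ± 0.54 (SE; limma adjusted p = 0.791), and without fl/fl S4 it was -0.12.

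Among the accessory subunits of the membrane arm, Ndufb7 (chromosome 8, 83566756 to 83571623, plus strand; promoter shown above) had the smallest p of all members. It belongs to the subunits with paired cysteines that lie on the intermembrane-space face. Its values were 4883, 4108, 3805 and 4152 normalised reads across the fl/fl libraries against 2951, 2939.6, 3492, 2641 and 2489.7 across the Mye-/- libraries. Every Mye-/- library lay below every fl/fl library. Group means came to 4237 ± 457 (SD, n = 4) for fl/fl and 2902 ± 384 (SD, n = 5) for Mye-/-, a difference of -31.5%, with a log2 fold change of -0.55 ± 0.15 (SE; 95% interval -0.86 to -0.24; limma adjusted p = 0.218). No overlapping exon and no close copy of Ndufb7 was found in the annotation.

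Ndufs5 (chromosome 4, 123712711 to 123718186, minus strand), Ndufa8 (chromosome 2, 36036329 to 36049344, minus strand) and Ndufb10 share that cysteine pattern and that face of the membrane. Ndufs5 gave 733, 513, 983 and 648 normalised reads across the fl/fl libraries against 269, 284, 276, 593 and 285 across the Mye-/- libraries. In Mye-/- S8, S9, S10 and S12 it lay below all of fl/fl, and S11 lay above fl/fl S3. Its log2 fold change of -1.11 ± 0.34 (SE; 95% interval -1.82 to -0.40) was the furthest from 0 among the members, with a limma adjusted p of 0.273 and no adjusted p from DESeq2. Ndufs5 has a close copy elsewhere in the annotation, and its mean over the libraries was low, at 509 normalised reads. Ndufa8 gave 6219, 4619, 3741 and 4517 across the fl/fl libraries against 3806, 3251, 3706, 3146 and 3187 across the Mye-/- libraries. Only fl/fl S4 lay within the Mye-/- range, below S8, and the log2 fold change was -0.46 ± 0.15 (SE; limma adjusted p = 0.319). For Ndufb10 it was -0.41 (limma adjusted p = 0.361).

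Ndufb9 (chromosome 15, 58933808 to 58939489, plus strand), a partner of the acyl carrier protein in the membrane arm, gave 5348, 5910.1, 6063 and 5968 normalised reads across the fl/fl libraries against 5035, 4716, 3997, 4831 and 3802 across the Mye-/- libraries. The groups did not overlap, with Mye-/- S8 next below fl/fl S1. Group means came to 5822 ± 322 (SD, n = 4) for fl/fl and 4476 ± 543 (SD, n = 5) for Mye-/-, and the log2 fold change was -0.39 ± 0.13 (SE; 95% interval -0.67 to -0.10; limma adjusted p = 0.332). Ndufb9 overlaps exons of Gm49356 on the same strand and has a close copy. Ndufa13, also known as GRIM-19 and named for a role in cell death (chromosome 8, 69894165 to 69902558, minus strand), gave 6008, 4276, 3514 and 3941 across the fl/fl libraries against 3549, 2419.8, 3745, 2549.8 and 2929 across the Mye-/- libraries. It was highest in fl/fl S1, and fl/fl S4 lay below Mye-/- S8 and S10. Its log2 fold change was -0.54 ± 0.18 (SE; limma adjusted p = 0.318). The exons of Ndufa13 overlap Tssk6 on the opposite strand, and it has a close copy.

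**Figure D2:**
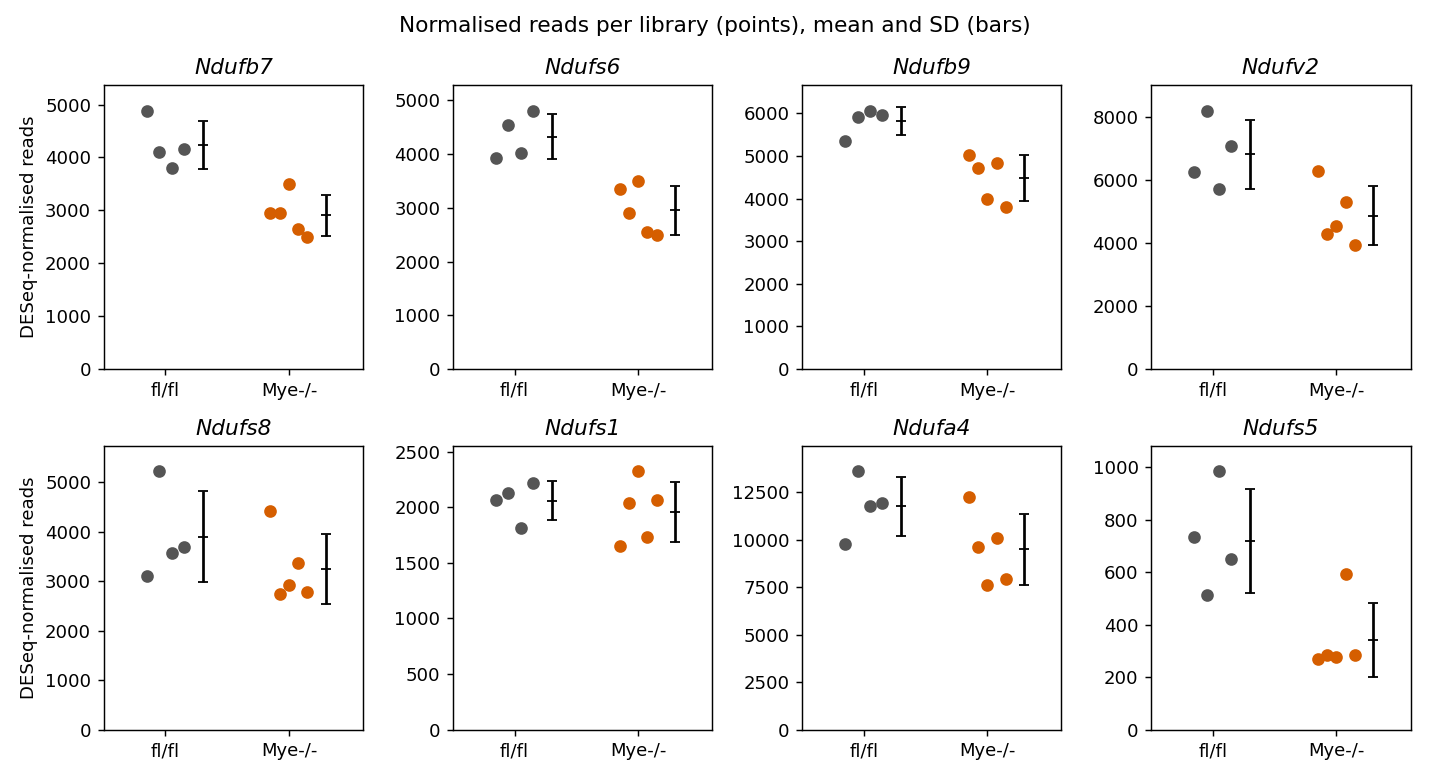
DESeq-normalised reads (y axis, from 0) in each library (points) of the fl/fl and Mye-/- groups (x axis) for 8 genes, with the group mean and SD as bars. The groups are apart in Ndufb7, Ndufs6 and Ndufb9 and overlap in Ndufv2, Ndufs8, Ndufs1, Ndufa4 and Ndufs5.

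The remaining membrane-arm subunits spanned log2 fold changes from -0.56 to 0.22. At the lower end were Ndufc1 (-0.56), Ndufa11 (-0.44), which lies where complex I meets complex III in supercomplexes, and Ndufa1 (-0.43), with limma adjusted p values of 0.398, 0.389 and 0.405. Next came Ndufb2 (-0.37), Ndufa10 (-0.34), a relative of nucleoside kinases, Ndufb8 (-0.31), Ndufb3 (-0.31), Ndufc2 (-0.29) and Ndufb6 (-0.29). Nearer to 0 were Ndufb5 (-0.26), Ndufa3 (-0.23) and Ndufb11 (-0.21). Ndufb4 (chromosome 16, 37647602 to 37654369, minus strand) gave 202, 948, 263 and 493 normalised reads across the fl/fl libraries against 455, 538, 446, 604 and 322 across the Mye-/- libraries. The fl/fl libraries again held the highest and the lowest value, and the log2 fold change of 0.22 ± 0.41 (SE; limma adjusted p = 0.881) had the opposite sign to the difference of the linear means, -0.74% of the fl/fl mean.

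Ndufab1 and Ndufa4 share the naming of the family but stand apart in role. Ndufab1 is the mitochondrial acyl carrier protein, which also serves fatty acid synthesis and iron-sulphur cluster assembly (chromosome 7, 122086815 to 122101851, minus strand). It gave 397, 481, 502 and 766 normalised reads across the fl/fl libraries against 708, 547, 668, 442 and 524 across the Mye-/- libraries. The groups overlapped, with the highest value in fl/fl S5 and the lowest in fl/fl S1, and the log2 fold change was 0.13 ± 0.29 (SE; limma adjusted p = 0.905). Without fl/fl S1 it was -0.000220. Ndufa4 was once counted with complex I and is now placed in complex IV, cytochrome c oxidase (chromosome 6, 11900373 to 11907451, minus strand). It gave 9777, 13587, 11764 and 11904 across the fl/fl libraries against 12252, 9635, 7610.2, 10091 and 7905 across the Mye-/- libraries, with group means of 11758 ± 1559 (SD, n = 4) for fl/fl and 9499 ± 1875 (SD, n = 5) for Mye-/-. Mye-/- S8 lay above 3 of the 4 fl/fl libraries, and the log2 fold change was -0.32 ± 0.15 (SE; limma adjusted p = 0.472).

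Levels were compared between genes as normalised reads per kilobase of transcript, averaged over all 9 libraries. Ndufa4 was the highest at 17218 per kilobase (19275 in fl/fl and 15571 in Mye-/-). Ndufb8 followed at 10632, then Ndufa7 at 9599, Ndufa3 at 9054 and Ndufa1 at 8106. The lowest levels were those of Ndufa12 at 299, Ndufab1 at 395, Ndufb4 at 489 and Ndufs1 at 774. Ndufa12, Ndufab1 and Ndufb4 have close copies elsewhere in the annotation, and the part of these copies in their low levels was not tested. Ndufs1 was the lowest of the core subunits. The choice of transcript mattered for a few genes: with the longest annotated transcript Ndufb2 came to 657 in place of 6312 per kilobase, Ndufb8 to 3375 and Ndufab1 to 161, which made Ndufab1 the lowest, and Ndufa4 was the highest with either choice.

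Nearly all members stood high together in fl/fl S3, where 36 of the 37 lay above their own mean over the libraries, against 24 to 26 in the other fl/fl libraries, 23 in Mye-/- S8, 12 in S10 and in S11, and 4 in S9 and in S12. The single highest value was divided between libraries. Of the 37 members, 14 had their highest value in fl/fl S1 and another 14 in fl/fl S3, whereas 3 peaked in S4, 4 in S5, and 1 each in Mye-/- S8 and S10. The lowest value was in Mye-/- S12 for 12 members, in S9 for 11 and in S10 for 7. These counts by library were not worked out over all tested features, and a shift of whole libraries was not tested. Those highest in S1 included Ndufv1, Ndufs3, Ndufs7, Ndufb7 and Ndufa13, and those highest in S3 included Ndufv2, Ndufs8, Ndufa4, Ndufc1 and Ndufs4. The transcripts that peaked in S1 had a median GC content of 53.7% and those that peaked in S3 one of 48.6%. Across the 37 members the log2 ratio of S1 to S3 had a Pearson correlation of 0.23 with GC content, against 0.092 over 6584 annotated features with a mean of at least 500. These are descriptions across genes that share the same libraries. After each gene's own mean was subtracted on the log2 scale, the average over the 37 genes was 0.22, 0.33, 0.05 and 0.10 across the fl/fl libraries in order. Across the Mye-/- libraries it was 0.06, -0.24, -0.18, -0.09 and -0.26, so that S8 lay at the level of the lower fl/fl libraries. Without Mye-/- S8, 22 members were lower at an unadjusted limma p under 0.05 and the median log2 fold change was -0.41. The share of all features past that threshold without S8 was not worked out.

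**Figure D3:**
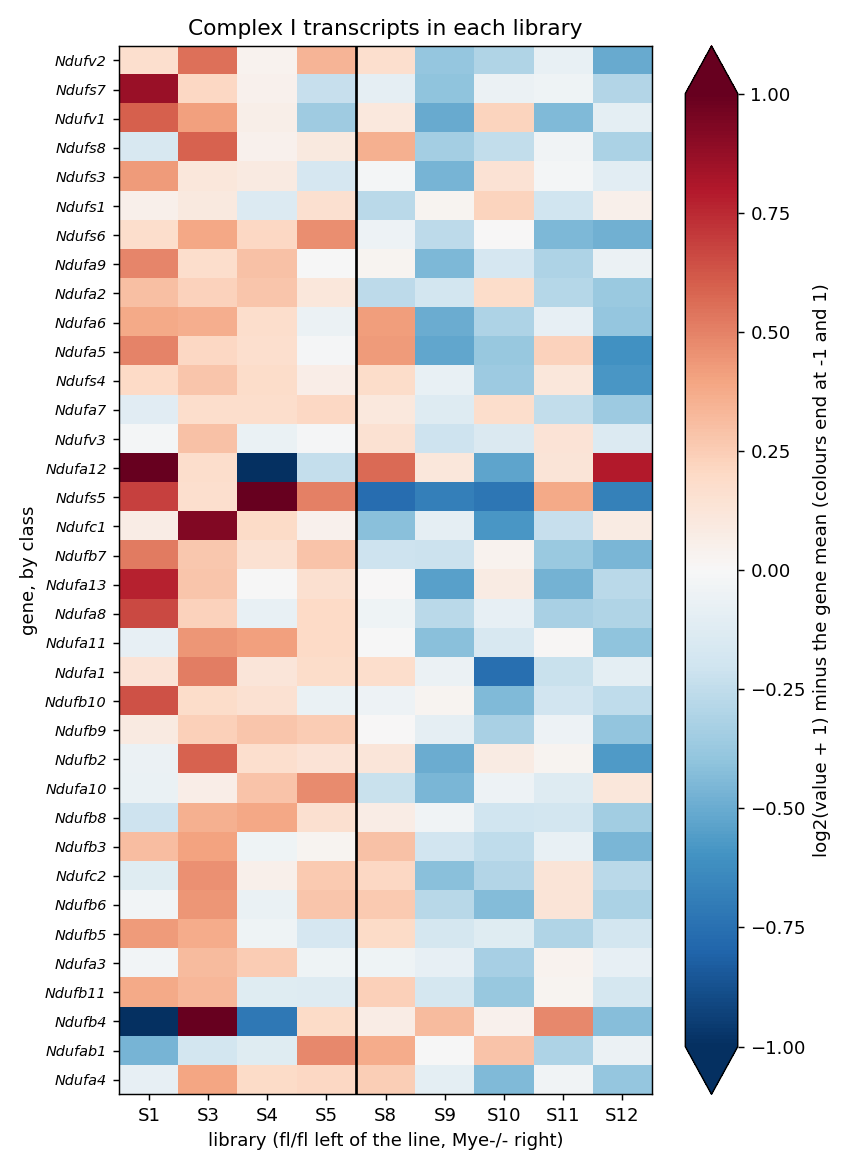
Log2(value + 1) minus the gene's mean over all 9 libraries (colour scale, ending at -1 and 1) for 36 of the members (rows, by class) in each library (columns, fl/fl left of the line). Red is concentrated in fl/fl S1 and S3 and blue in Mye-/- S9 and S12, with 13, 14, 11 and 11 of these members at their highest or lowest there, and Mye-/- S8 is mixed.

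As a share of all reads, the 37 genes took 0.408%, 0.407%, 0.388% and 0.371% across the fl/fl libraries in order. Across the Mye-/- libraries they took 0.352%, 0.307%, 0.324%, 0.322% and 0.295%. The groups did not overlap in this sum, with Mye-/- S8 nearest to fl/fl S5. The same held after the reads of the mitochondrial chromosome were left out, with 0.397% to 0.449% in fl/fl and 0.310% to 0.379% in Mye-/-.

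The subunits of complex I encoded by the mitochondrial genome were spread more widely, and most of their estimates were near 0. The table gives no symbol for its features on the mitochondrial chromosome, so they were matched by position to the annotated genes. The feature that covers mt-Nd2, a proton-pumping subunit (positions 3845 to 5171), gave 38174, 140135, 67243 and 87893 normalised reads across the fl/fl libraries against 100548, 98602, 40884, 94453 and 67233 across the Mye-/- libraries. The fl/fl libraries held both the lowest and the highest value, S1 and S3, and the log2 fold change was 0.02 ± 0.30 (SE; 95% interval -0.61 to 0.66; limma adjusted p = 0.986). The feature over mt-Nd4l and mt-Nd4 (9876 to 11544) gave 123015, 398249, 191701 and 270617 across the fl/fl libraries against 316864, 297538, 126880.0, 268974 and 194446 across the Mye-/- libraries, a log2 fold change of 0.03 ± 0.31 (SE; limma adjusted p = 0.985). Both were lowest in fl/fl S1 and highest in fl/fl S3. The more abundant of 2 features over mt-Nd3 (9459 to 9804) gave 13766, 29155, 14389 and 19692 across the fl/fl libraries against 19669.8, 16479.7, 7935, 17956 and 10691 across the Mye-/- libraries, with a log2 fold change of -0.42 ± 0.25 (SE; limma adjusted p = 0.568). The other (9203 to 9888) had a log2 fold change of -0.44 (limma adjusted p = 0.625). The genes mt-Nd1, mt-Nd5 and mt-Nd6 lie in features that also cover other genes. The feature over mt-Rnr2 and mt-Nd1 (1094 to 3841) gave 179573, 406161, 203284 and 252882 across the fl/fl libraries against 286397, 268401, 188196, 294757 and 182451 across the Mye-/- libraries (log2 fold change -0.05; limma adjusted p = 0.962). The feature over mt-Nd5, mt-Nd6 and mt-Cytb (11742 to 15288) gave 231860.0, 728982, 381660.0 and 541776 across the fl/fl libraries against 557903, 553043, 244137, 483575 and 346406 across the Mye-/- libraries (log2 fold change -0.05; limma adjusted p = 0.972). In both, fl/fl S1 was the lowest library and fl/fl S3 the highest. A shorter feature over mt-Nd5 and mt-Nd6 (11720 to 14070) had a log2 fold change of -0.09 (limma adjusted p = 0.9). The interval for mt-Nd2 is wide, and the difference between the nuclear and the mitochondrial subunits was not tested. All features of the mitochondrial chromosome together took between 3.49% (fl/fl S1) and 9.45% (fl/fl S3) of reads.

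**Figure D4:**
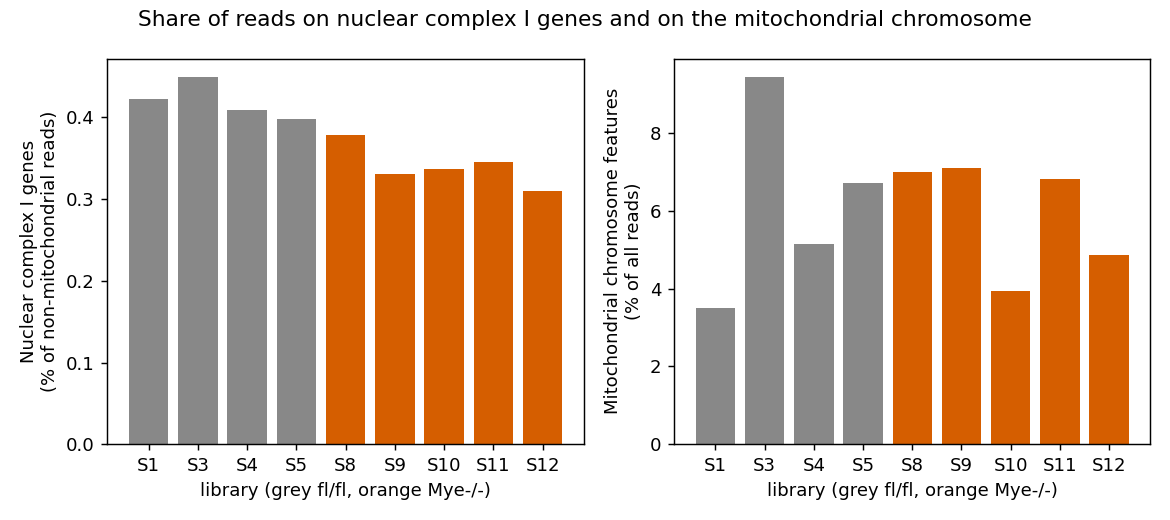
Share of reads in each library (x axis; grey fl/fl, orange Mye-/-) on the 37 nuclear complex I genes, as a percentage of reads outside the mitochondrial chromosome (left), and on all features of the mitochondrial chromosome, as a percentage of all reads (right). On the left the fl/fl bars (0.397% to 0.449%) all stand above the Mye-/- bars (0.310% to 0.379%); on the right the groups overlap, and fl/fl S1 and S3 hold the lowest and the highest bar.

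Assembly factors bring the modules of complex I together and are not part of the finished enzyme. Of 16 measured, 10 had a log2 fold change below 0 and 6 above (median -0.19). At an unadjusted limma p under 0.05, 2 were lower and 0 higher, against 4.13% and 6.38% of all tested features. Those 2 were Tmem126b and Acad9, which act in the same complex for the membrane arm. Tmem126b gave 497, 1076, 837 and 430.5 normalised reads across the fl/fl libraries against 255, 427, 443, 376 and 224 across the Mye-/- libraries, a log2 fold change of -0.99 ± 0.36 (SE; limma adjusted p = 0.337). Acad9 gave 1696, 1124, 1022 and 1305 across the fl/fl libraries against 467, 935, 1169.9, 1017 and 748 across the Mye-/- libraries, a log2 fold change of -0.61 ± 0.26 (SE; limma adjusted p = 0.438). In both the groups overlapped. Ndufaf6 gave 78.9, 65.7, 34.9 and 51.8 across the fl/fl libraries against 80.2, 233, 192, 97.2 and 190.5 across the Mye-/- libraries, without overlap and in the other direction (log2 fold change 1.38 ± 0.72, SE; limma adjusted p = 0.511). Of the 15288 tested features, 260 had every Mye-/- value above every fl/fl value. Nubpl, which delivers iron-sulphur clusters to complex I, was at 0 in fl/fl S3 and S4, so its log2 fold change of 3.01 depends on the pseudocount (limma adjusted p = 0.491).

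Regulators of mitochondrial biogenesis were divided. Of 11 tested, 5 were lower and 6 higher (median 0.03). At an unadjusted limma p under 0.05, 0 were lower and 1 higher, against 4.13% and 6.38% of all tested features. That gene was Pprc1, a coactivator related to PGC-1, with 1734, 2009, 1692 and 2238 normalised reads across the fl/fl libraries against 2631, 3102, 2944, 1993 and 2191 across the Mye-/- libraries. Mye-/- S11 lay below fl/fl S3 and S5 and Mye-/- S12 below fl/fl S5, with a log2 fold change of 0.41 ± 0.17 (SE; limma adjusted p = 0.428). The mitochondrial RNA polymerase Polrmt had a log2 fold change of 0.51, the mitochondrial transcription factor Tfam one of -0.39, and the ETS factor Gabpa one of 0.20 (limma adjusted p = 0.514, 0.565 and 0.76). Nrf1 and Yy1, whose motifs were searched above, were at 0.03 and -0.12 (limma adjusted p = 0.973 and 0.796). Ppargc1a, which encodes PGC-1alpha, was listed at 0 in every library but fl/fl S3 and was not tested.

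Other enzymes also pass electrons to ubiquinone. Of 11 such genes, 8 were lower and 3 higher (median -0.39), 6 lower and 0 higher at an unadjusted limma p under 0.05, and 2 without overlap between the groups. Over all tested features, 4.13% were lower and 6.38% higher at that threshold, and 1.6% were lower without overlap. Etfa, a subunit of the flavoprotein that carries electrons from fatty acid oxidation, gave 3423, 3816, 3491 and 3553 normalised reads across the fl/fl libraries against 3243, 2198, 1970.2, 2618 and 2498 across the Mye-/- libraries. Its groups did not overlap (log2 fold change -0.53 ± 0.16, SE; limma adjusted p = 0.268). Sqrdl, the sulphide:quinone oxidoreductase, gave 6059, 4729, 5375 and 4371 across the fl/fl libraries against 4062, 4110.1, 3899, 3885 and 3547 across the Mye-/- libraries, also without overlap (log2 fold change -0.39 ± 0.14, SE; limma adjusted p = 0.332). Etfb and the complex II subunit Sdhb had log2 fold changes of -0.53 and -0.39 (limma adjusted p = 0.352 and 0.405). Over 37 nuclear genes of complexes II to V, which include Sdhb, 35 were lower, with a median of -0.28 and 16 lower at that unadjusted threshold, beside 34, -0.32 and 16 for complex I. Whether complex I differed from the other complexes was not tested. Among relatives of Ndufa4, AA467197 had a log2 fold change of -0.81 and Ndufa4l2 was listed at 0 in all 9 libraries. Dnajc15, a protein known as a brake on complex I, was at -0.22 (limma adjusted p = 0.774 for AA467197 and 0.754 for Dnajc15).

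Transcript length moved with the fold changes in these libraries. The 37 complex I transcripts are short, with a median of 861 bases against 2742 over all annotated tested features. Across 6584 annotated features with a mean of at least 500 normalised reads, the log2 fold change had a Pearson correlation of 0.33 and a Spearman correlation of 0.36 with log transcript length, and across the 37 members of 0.31 and 0.28. Among those features, the 540 shorter than 1000 bases had a median log2 fold change of -0.21, with 79.4% below 0. The 1509 features of 1000 to 2000 bases had a median of -0.11 and the 4535 longer ones a median of 0.06. Of the complex I genes, 35 had a mean of at least 500. Among these, the 22 shorter than 1000 bases had a median of -0.39, with 100% below 0. The 11 of 1000 to 2000 bases had a median of -0.32, with 90.9% below 0. The 2 longer ones, Ndufs1 and Ndufa10, had a median of -0.21. Ndufb4 (971 bases, log2 fold change 0.22) and Ndufa12 (1110 bases, 0.48) lay below that mean and are not in these medians. The part of transcript length in the lower values was not tested.

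**Figure D5:**
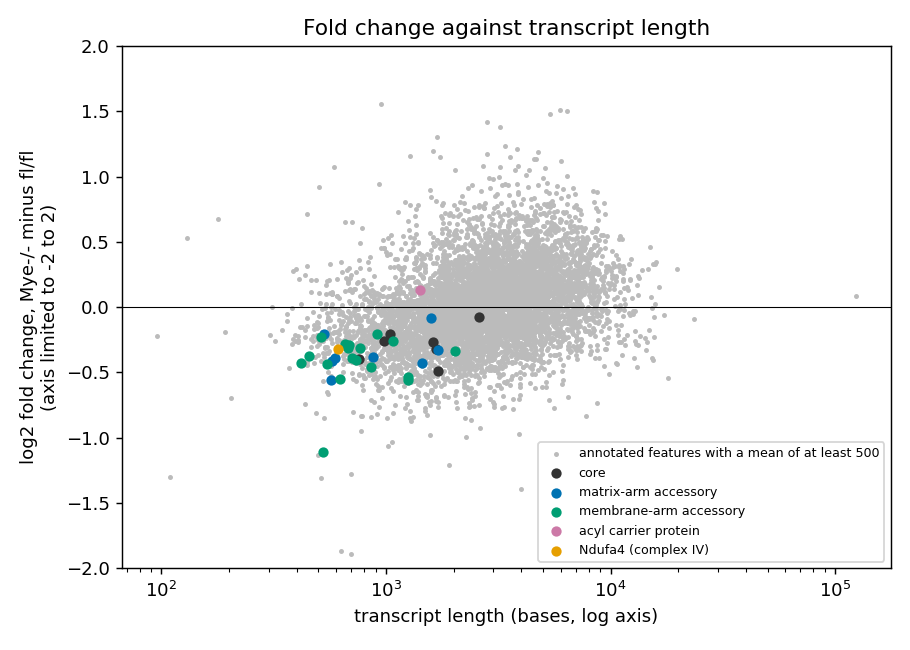
Log2 fold change (y axis, limited to -2 to 2, Mye-/- minus fl/fl) against transcript length (x axis, bases, log scale) for 6584 annotated features with a mean of at least 500 normalised reads (grey; 7 lie outside the range) and the 35 complex I genes above that mean (coloured by class). Short transcripts lie lower than long ones (Pearson correlation 0.33), and the complex I genes sit at the short end, all but Ndufab1 below 0.

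Some members could not be separated from neighbours or copies. By the annotation, the exons of 15 members overlap those of another gene, 13 of them on the opposite strand, and 12 members have a close copy, another gene with at least 95% identity over at least 200 bases. The members with a log2 fold change above 0, Ndufa12, Ndufb4 and Ndufab1, are among those with a close copy. The 18 members with neither overlap nor close copy all had log2 fold changes below 0 (median -0.36), and 8 of them were lower at an unadjusted limma p under 0.05. Over all tested features 4.13% were lower at that threshold, and 7.18% of those with a mean of at least 500. In 1 of the 18, Ndufb7, every Mye-/- value lay below every fl/fl value. The other members with groups apart, Ndufs6 and Ndufb9, have both an overlapping exon and a close copy.

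Depth, the number of detected features and the levels of cell type markers differed between libraries. Libraries held 33383559 to 46489349 reads, and 14240 to 16385 features were detected in fl/fl and 15614 to 16802 in Mye-/-. All 6 macrophage markers were present, with summed levels of 327681 to 528675 normalised reads in fl/fl and 262485 to 328460 in Mye-/-. The lysozyme gene Lyz2 made up the largest part of this sum. The mean of this 1 of the 6 was lower in Mye-/-, where every value lay below every fl/fl value, and the means of the other 5 were higher. All 7 Kupffer cell markers had higher Mye-/- means, with sums of 10532 to 20939.7 in fl/fl and 20947 to 31837 in Mye-/-, most of it from Id3. The defining Kupffer cell marker Timd4 was at 0 in every library but Mye-/- S12, and Clec4f was at 0 in fl/fl S1, S3 and S4. All 5 erythroid markers had lower Mye-/- means, with sums of 5525 to 35097 in fl/fl and 2344 to 6567 in Mye-/-. Of 7 neutrophil markers 3 had lower Mye-/- means and 4 higher ones. Their sums were 23997 to 44914 in fl/fl and 11963 to 33539.5 in Mye-/-, most of it from S100a8 and S100a9, which were lower. Ly6g was at 0 in every library but fl/fl S3. Hepatocyte markers summed to 662 to 1888 in fl/fl and 1240.1 to 11312 in Mye-/-, highest in S10. The 4 monocyte markers summed to 364972 to 568465 in fl/fl and 385679 to 668534 in Mye-/-. Endothelial, lymphoid, dendritic cell and stellate cell markers summed to at most 1074, 303, 1135 and 130 normalised reads in any library. The part of these differences in the complex I values was not tested.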

How the data were processed

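RNA sequencing measured transcripts in 9 libraries of sorted liver macrophages, 4 labelled fl/fl and 5 labelled Mye-/-. The values are normalised read signal: the authors scaled the reads of each library by a DESeq size factor (per the file headers), with no correction for length. The submitters' processing notes name DESeq, STAR 2.4.0, SAMtools, Picard, FastQC and mm10. No source used here gives the counting tool or strand setting. Every deposited value was a whole multiple of its column's smallest value, within 0.01 reads for 100% of values, which gave back whole reads. Within a group, the SD of a member had a median of 17.0% of its mean in fl/fl and 16.6% in Mye-/-. The labels name no molecular identifiers.

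Log2(value + 1) was fitted with limma 3.58.1, its prior following the intensity (R 4.3.3), for 15288 features that reached 10 in 4 or more libraries. Tests were two-sided, and Benjamini-Hochberg adjusted p values were held to 0.05. The fit was run on simulated data with changes larger than those of most members, which does not test changes of the size seen here. The edgeR 4.0.16 quasi-likelihood test and DESeq2 1.42.0 on recovered reads, pseudocounts of 0.5 and 8, other filters and scalings, covariates and left-out libraries were alternatives. No test was made over the members as a set. P-values measure the spread between these libraries. The members, classes and related lists were chosen with earlier results of these data known. Values in every library are given for the core subunits (1 is not reported here), the 8 members with the smallest p, members without overlap or with a log2 fold change above 0, the highest and lowest per kilobase, Ndufa4 and Ndufab1. Outside the members, the mitochondrial subunits and up to 4 genes per related list with the smallest p were named; Nrf1, Yy1, Gabpa, Ppargc1a, Ndufa4l2 and Lyz2 were named outside that rule. Gene structure came from GENCODE M21 and promoters from RefSeq. For length, the best supported transcript was used, and the shortest of those. A feature stood for a mitochondrial gene when it covered at least 90% of it.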

Additional observations from a re-analysis of the deposited data

Results flagged for a closer look

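Among 74 groups of values (37 members in each genotype), 5 held a value far from the others of its group, and chance alone flags about 1 in 20 such groups. In fl/fl, S3 stood above the other libraries for Ndufc1 (2362 normalised reads), Ndufa1 (4736) and Ndufv3 (2587), and S1 stood below them for Ndufa7 (4633). In Mye-/-, S11 stood above the other libraries for Ndufs5 (593). No explanation was tested.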

How the results depend on the processing

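Of the 24 alternatives, 9 left out 1 library each. The number of members called lower was 0 under each but DESeq2, where it was 2. The number with a log2 fold change below 0 ran from 32 to 36 and the median from -0.41 to -0.25, so both kept their direction under every alternative run. Age as a covariate and 11-week-old mice only gave the same fold changes and are not separate checks of direction. Leaving out 1 library gave 34 to 36 members, medians of -0.41 to -0.27 and 10 to 22 members lower at an unadjusted limma p under 0.05. That last number was 16 with all libraries, 5 when age was a covariate, 4 in 11-week-old mice only, and 9 both when the number of detected features was a covariate and when fl/fl S1 and S3 were left out. The share of all features past the unadjusted threshold was not worked out for these alternatives. Over all tested features limma called 3; DESeq2 called 123, and limma 17 at pseudocount 8, 6 with TMM scaling, 8 with quantile normalisation, 21 without an intensity trend, 13 given the mitochondrial share, 9 without both S1 and S3 of fl/fl, 12 at a mean of 500 or more, 0 given age or the number of detected features, 0 in 11-week-old mice only, and 0 to 20 when 1 library was left out. The log2 fold changes that changed sign were those of Ndufb4 (-0.0113 with DESeq2, -0.0531 given age and in 11-week-old mice only, -0.10 to 0.64 when 1 library was left out), Ndufa12 (-0.23 given detected features, -0.12 to 0.93 when 1 library was left out) and Ndufab1 (-0.0218 given detected features, -0.12 without both S1 and S3, -0.000220 to 0.32 when 1 library was left out). Without both S1 and S3, Ndufv1 came to 0.00713, Ndufb11 to 0.0355 and Ndufv3 to 0.00102. The cause of these changes was not tested. The filter at a mean of 500 and the count at an unadjusted p were chosen after seeing the data. No paired analysis was possible because the groups share no replicate numbers. Reads of low members such as Ndufa12, Ndufb4 and Ndufab1 limit what can be said of their direction.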
